A study of Mus musculus with 26 samples.

Results

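The clustered histone genes of the mouse, chosen as every gene whose name begins with Hist1h, Hist2h, Hist3h or Hist4h, were followed through 3 readouts in embryonic stem (ES) cells, embryonic fibroblasts and induced pluripotent stem (iPS) cells. The promoter arrays named 61 of them, and Hist2h3b, placed through its RefSeq entry, brought the number to 62. Of these, 55 had a measured promoter among 17786 measured promoters in all. The expression array had probes for 34, and 31 passed the filter on dim probes among 17133 genes tested. By histone type, the measured promoters were those of 6 of 6 H1 genes, 14 of 15 H2A, 16 of 17 H2B, 8 of 12 H3 and 11 of 12 H4 genes. Cluster 1 held 46 of the 55, cluster 2 held 6, cluster 3 held Hist3h2a and Hist3h2ba, and cluster 4 was Hist4h4 alone. Hist1h3a, Hist1h3e, Hist1h4m, Hist2h2aa1, Hist2h3c1, Hist2h3c2 and Hist3h2bb had no measured promoter.

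These genes encode the replication-dependent histones, which are made in S phase to package newly copied DNA. H2A, H2B, H3 and H4 form the core of the nucleosome, and H1 binds the linker DNA between cores. Most of their messenger RNAs end in a stem-loop in place of a poly(A) tail, and many H2A and H2B genes lie head to head and share one stretch of promoter. Transcription is switched on by NPAT, a coactivator phosphorylated by cyclin E and CDK2. The copies Hist1h1t, Hist1h2aa and Hist1h2ba encode the testis histones H1t, TH2A and TH2B, which are known from male germ cells. H3K4me3 marks the starts of active or poised genes, and H3K27me3 is laid down by Polycomb complexes at silent developmental genes; promoters with both are called bivalent.

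The study compared both marks and RNA between the 3 cell kinds. Chromatin came from the ES lines E14 and V6.5, the fibroblast lines MEF1 (male) and MEF2 (female), and 1 iPS line, each hybridised on a set of 2 promoter arrays per mark with the precipitated DNA in the Cy5 channel and its input in the Cy3 channel. The ES cells were grown in the usual ES medium. RNA came from V6.5, which depends on feeder cells, from female fibroblasts and from iPS cells, with 1 array and 1 duplicate each. Strain, age, passage, the reprogramming factors and whether the duplicates came from separate cultures are not given in the labels, so p-values for RNA measure the spread between these arrays only. In bulk samples such as these, fewer cells of a type and less RNA per cell cannot be told apart.

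Between 93.57 and 99.96% of promoter probes were well above background in either channel. The H3K27me3 ratios of E14 had the narrowest spread, with a median absolute deviation of 0.29 on each of its arrays, against 0.417 to 0.712 elsewhere. On the expression arrays 46.4 to 58.9% of spots were well above background, except 86.7% on the fibroblast duplicate, which correlated with the other fibroblast array at r = 0.781. That other array correlated more closely with the ES arrays (0.851 and 0.861) and the iPS arrays (0.837 and 0.832). The 2 ES arrays correlated with each other at 0.978 and the 2 iPS arrays at 0.992. RNA comparisons with fibroblasts therefore rest on 2 unlike arrays. The scanner files of the ES and fibroblast RNA arrays are filed under each other's labels compared with the deposited value table. The table was followed: all 7 pluripotency markers were lower and all 8 fibroblast markers higher in the columns labelled fibroblast, and every RNA direction between ES cells and fibroblasts turns if the files are read as filed. Among the fibroblast markers, Col1a1, a collagen gene, read 4.80 and 4.80 in log2 units over the array's 75th percentile on the ES arrays, 7.46 and 6.48 on the fibroblast arrays, and 2.45 and 2.16 on the iPS arrays. Lum, another matrix gene, read -5.19 and -5.36, 4.96 and 4.30, and -4.90 and -5.16 in the same order. Of 5 macrophage and blood markers 3 were higher and 1 lower in the fibroblast columns. The part of these markers in the histone results was not tested.

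Promoters of clustered histone genes stood high in H3K4me3 and low in H3K27me3 in all 5 lines. Values are log2 ratios of precipitated DNA to input, centred on each array's median and averaged over the probes within 1000 bp of the start of transcription (a median of 7 probes per histone promoter, 4 to 13). The median H3K4me3 over the 55 was 2.22 in E14, 2.47 in V6.5, 2.32 in MEF1, 2.49 in MEF2 and 2.40 in iPS cells. Over all promoters the corresponding medians were 0.96, 1.20, 1.04, 1.14 and 0.97. An H3K4me3 ratio of at least 1 was found at 51 of 55 members in every line, where the background share of all promoters was 48.3% in E14, 56.5% in V6.5, 51.2% in MEF1, 53.7% in MEF2 and 48.9% in iPS cells. Because neighbouring genes share probes, the 55 promoters make 40 separate units, of which 37 passed the same level in every line. The 7426 other promoters at or above 1 in all 5 lines had lower medians than the histone genes, 1.62, 2.09, 1.74, 2.08 and 1.77 in the same order.

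H3K27me3 was below the array median at most members. The median over the 55 was -0.20 in E14, -0.62 in V6.5, -0.61 in MEF1, -0.99 in MEF2 and -0.41 in iPS cells, against -0.01, -0.05, -0.04, -0.08 and -0.01 over all promoters. In 42 of 55 the ratio was below 0 in all 5 lines. A ratio of at least 1 was reached by 3 members in E14 (background 2.94%), 2 in V6.5 (12.8%), 1 in MEF1 (6.99%), 1 in MEF2 (11.4%) and 3 in iPS cells (9.14%). They were Hist3h2ba and the Hist1h2aa and Hist1h2ba pair in E14 and iPS cells, the pair alone in V6.5, and Hist3h2ba alone in MEF1 and MEF2. Hist1h1e and Hist1h1t reached at least 0.5 in an ES line. Both marks of at least 0.5 were found together at 4 members in E14 (background 10.6%), V6.5 (16.8%) and iPS cells (14.6%), namely Hist1h1e, the pair and Hist3h2ba, and at Hist3h2ba alone in MEF1 (5.91%) and MEF2 (8.17%).

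**Figure D1:**
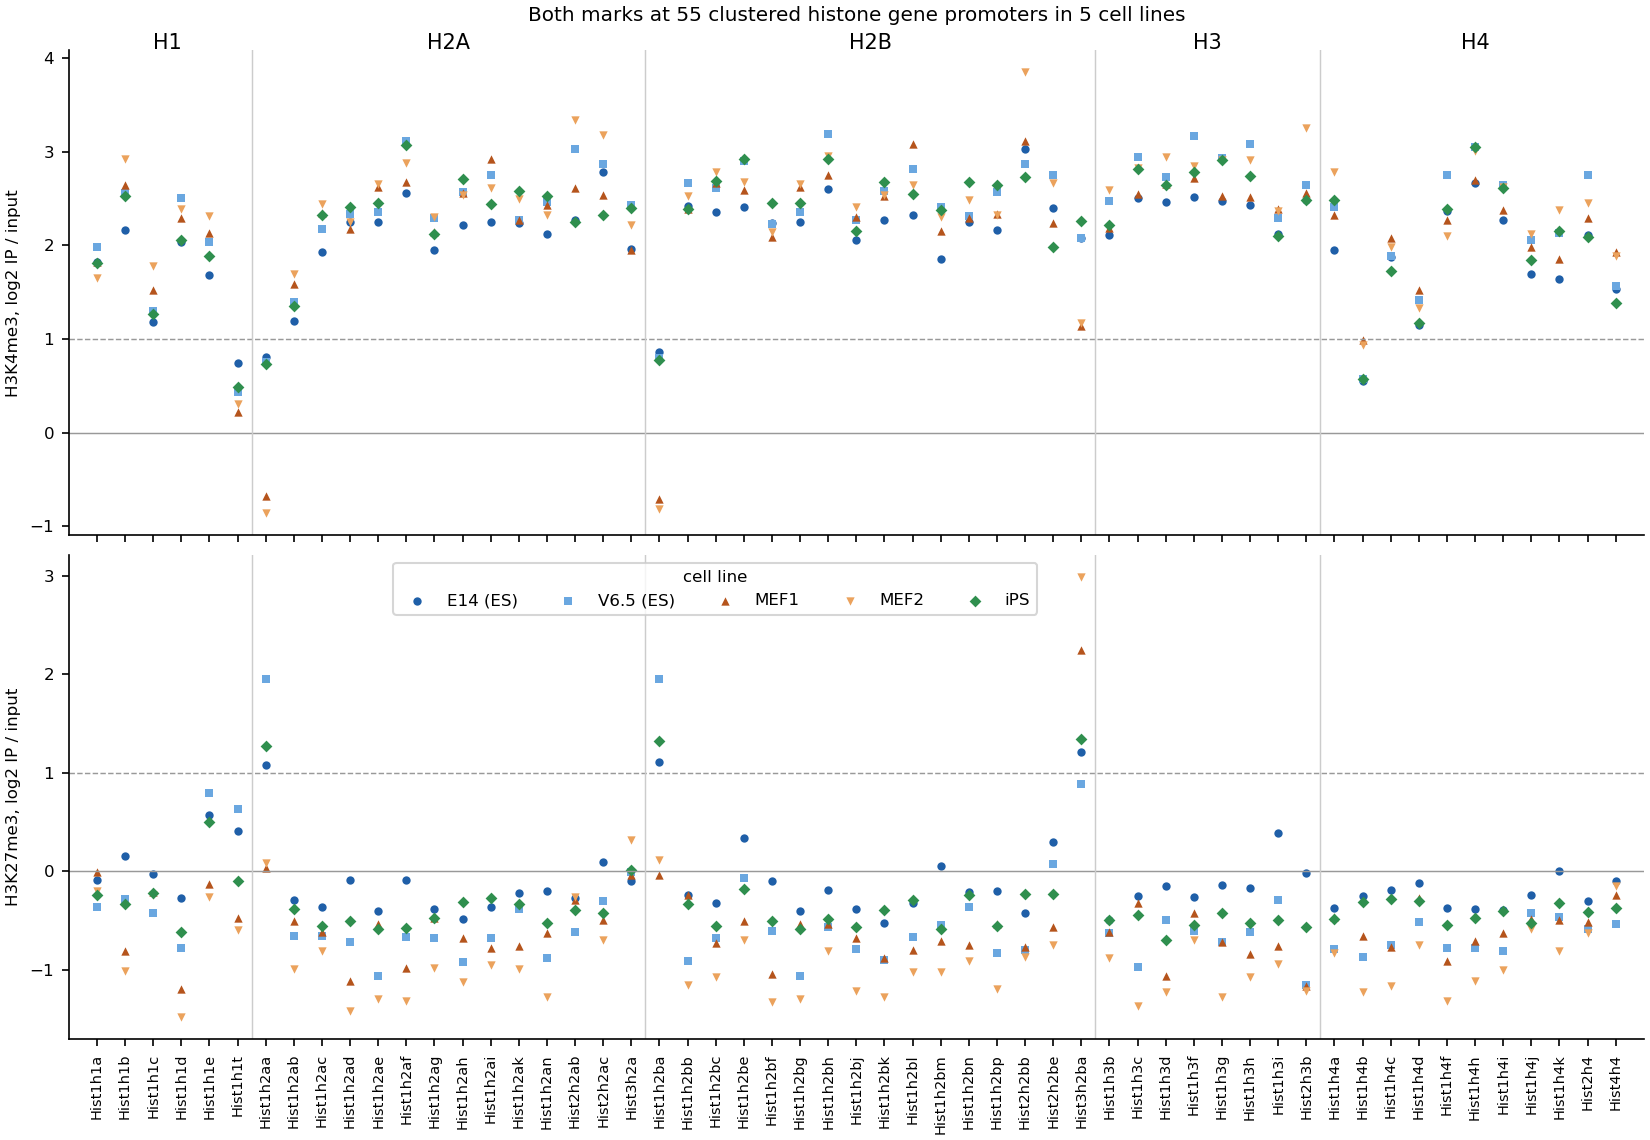
H3K4me3 (upper panel) and H3K27me3 (lower panel) at the 55 measured promoters, as log2 ratios of precipitated DNA to input; each point is 1 cell line and the dashed line is a ratio of 1. Most promoters lie above the dashed line for H3K4me3 and below 0 for H3K27me3, Hist1h2aa and Hist1h2ba lie lowest in fibroblasts for H3K4me3, and Hist3h2ba lies highest in fibroblasts for H3K27me3.

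The histone types overlapped in this pattern. The median H3K4me3 in E14, MEF1 and iPS cells was 2.47, 2.54 and 2.69 for the H3 genes, 2.26, 2.37 and 2.51 for H2B, 2.23, 2.39 and 2.41 for H2A, 1.87, 2.08 and 2.09 for H4, and 1.75, 1.98 and 1.85 for H1. Without the testis copy Hist1h1t the H1 medians were 1.82, 2.13 and 1.88, above H4 in MEF1 and below it in E14 and iPS cells. All 8 H3 promoters lay between 2.11 and 3.26 in every line, whereas the H4 promoters ran from 0.55 to 3.05. Hist2h2bb, an H2B gene of cluster 2, had the highest mean, with 3.03 in E14, 2.87 in V6.5, 3.12 in MEF1, 3.85 in MEF2 and 2.73 in iPS cells. In MEF1 only 1 of 17786 promoters exceeded it, and in E14 only 4. Hist1h4h (mean 2.89) and Hist1h2bh (mean 2.89) followed.

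H3K4me3 stayed below 1 in all 5 lines at 4 members, the 3 testis copies and Hist1h4b, an H4 gene of cluster 1. Hist1h4b read 0.55 in E14, 0.57 in V6.5, 0.99 in MEF1, 0.94 in MEF2 and 0.58 in iPS cells. Its H3K27me3 was below 0 in each line, at -0.25, -0.88, -0.66, -1.22 and -0.32, so that neither mark reached 1 there. The lowest H3K27me3 means belonged to Hist1h1d (-0.87), Hist2h3b (-0.83) and Hist1h2bk (-0.80), an H1, an H3 and an H2B gene.

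**Figure D2:**
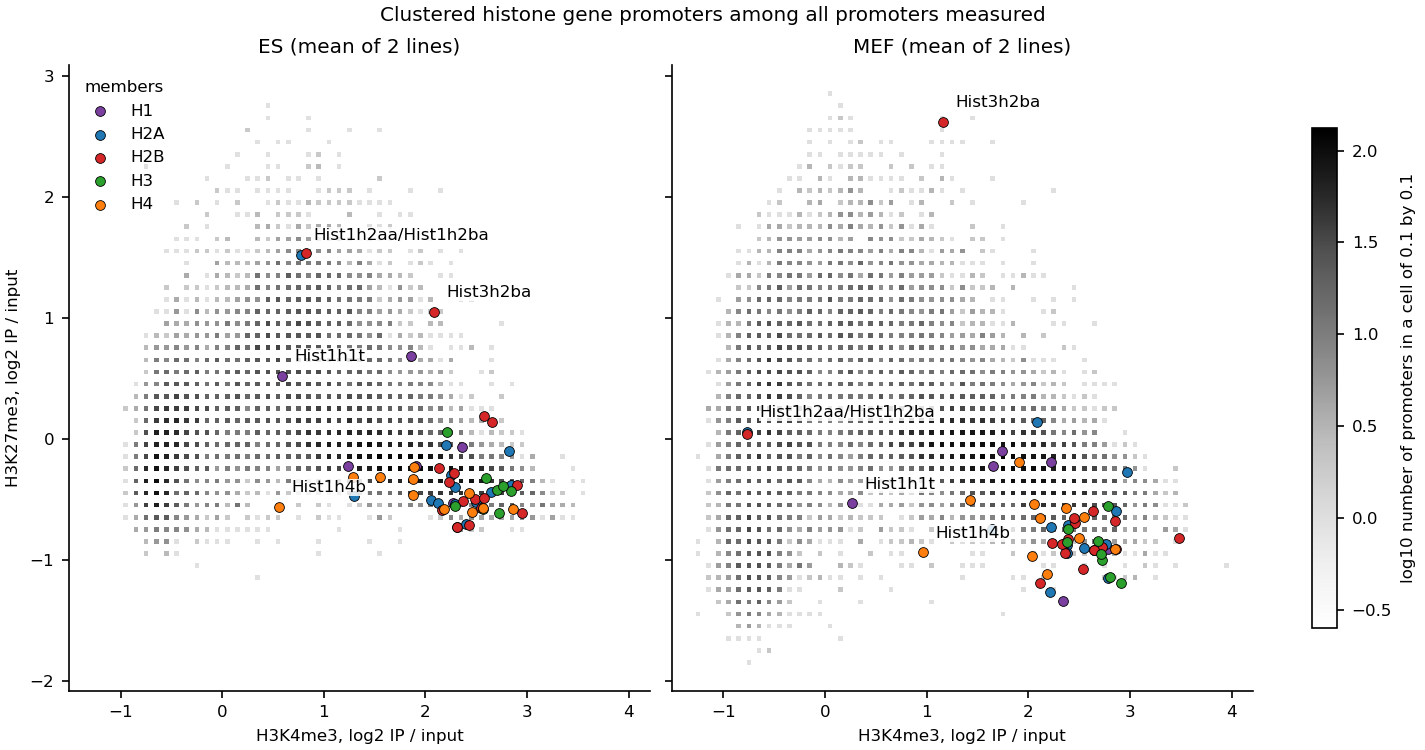
H3K4me3 (x axis) against H3K27me3 (y axis), both as log2 ratios to input, in ES cells (left, mean of 2 lines) and fibroblasts (right, mean of 2 lines); grey squares count all 17786 promoters and coloured points are members by histone type. Most members sit at the lower right, the Hist1h2aa and Hist1h2ba pair moves from upper middle in ES cells to the left in fibroblasts, and Hist3h2ba moves up.

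The high H3K4me3 was not confined to the start. Over the 51 members other than the testis copies and Hist3h2ba, the mean of the probes in E14 was 1.33 in the 500 bp beginning 2000 bp upstream, 2.41 between 500 and 1000 bp downstream, and 1.70 between 1500 and 2000 bp downstream. The same bins held 0.35, 1.17 and 0.68 over all promoters. Other histone genes lie within that distance of many members, so these bins include the promoters of neighbours.

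**Figure D3:**
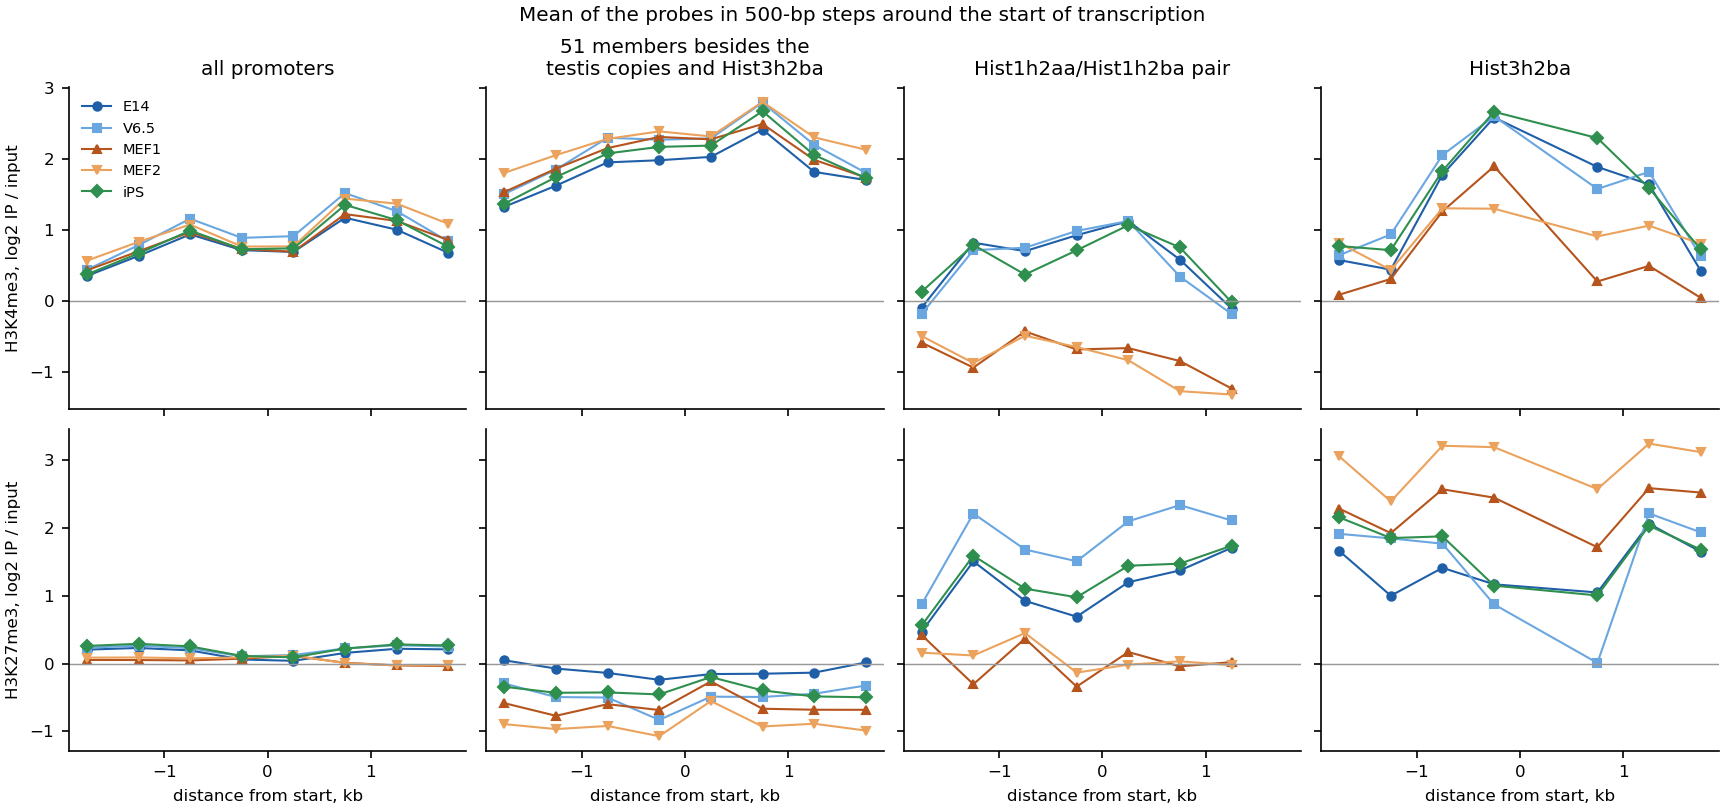
Mean log2 ratio to input of the probes in 500-bp steps from 2000 bp upstream to 2000 bp downstream of the start (x axis, kb), with H3K4me3 above and H3K27me3 below and 1 line per cell line. From left to right the columns show all promoters, the 51 members other than the testis copies and Hist3h2ba, the Hist1h2aa and Hist1h2ba pair on Hist1h2aa's strand, and Hist3h2ba; the fibroblast lines lie below the others for H3K4me3 at the pair and above them for H3K27me3 at Hist3h2ba.

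Promoter sequences of the 5 members the chromatin results turn on are shown so that the marks can be read against the elements each carries. They are RefSeq's, build GRCm38.p6, 180 bases ending at the base before the start of transcription, 5′ to 3′ on the gene's strand. They are Hist1h2ba (chr13:23934157-23934336, minus strand, testis H2B), Hist1h1t (chr13:23695631-23695810, plus strand, testis H1), Hist3h2ba (chr11:58948731-58948910, plus strand), Hist2h2bb (chr3:96269520-96269699, plus strand) and Hist1h4b (chr13:23756757-23756936, plus strand). Capitals mark matches, on either strand, to the octamer ATTTGCAT, the CCAAT box CCAAT and the TATA box TATAAA.
Hist1h2ba: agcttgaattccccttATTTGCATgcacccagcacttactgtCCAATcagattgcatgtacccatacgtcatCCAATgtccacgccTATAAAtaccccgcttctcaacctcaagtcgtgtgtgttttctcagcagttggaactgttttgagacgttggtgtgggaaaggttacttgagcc
Hist1h1t: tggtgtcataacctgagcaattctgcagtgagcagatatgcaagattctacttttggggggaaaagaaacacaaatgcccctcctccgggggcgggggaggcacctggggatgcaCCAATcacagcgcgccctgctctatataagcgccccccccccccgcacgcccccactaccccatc
Hist3h2ba: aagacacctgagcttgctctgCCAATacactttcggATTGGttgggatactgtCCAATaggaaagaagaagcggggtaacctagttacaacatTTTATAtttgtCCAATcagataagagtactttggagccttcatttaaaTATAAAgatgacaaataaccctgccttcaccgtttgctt
Hist2h2bb: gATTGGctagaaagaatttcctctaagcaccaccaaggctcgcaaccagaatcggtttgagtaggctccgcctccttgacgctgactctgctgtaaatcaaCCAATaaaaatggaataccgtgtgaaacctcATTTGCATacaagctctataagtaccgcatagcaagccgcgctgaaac
Hist1h4b: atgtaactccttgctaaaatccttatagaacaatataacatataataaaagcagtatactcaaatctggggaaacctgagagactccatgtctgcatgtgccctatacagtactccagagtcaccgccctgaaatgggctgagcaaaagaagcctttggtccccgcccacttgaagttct
Hist1h2ba and Hist2h2bb carried the octamer, which Oct-1 (Pou2f1) is known to bind in H2B promoters, and Hist3h2ba and Hist1h1t did not. Hist1h4b had none of the 3 motifs in these letters. Such a match is a string of letters and not a measured site.

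Across the 57 RefSeq promoter entries of 56 members (250 bases before the start and 50 after), the octamer was found in 14, or 24.6%, against 1.74% of 32851 promoters. All 14 belonged to H2A (7 of 15) and H2B (7 of 15). Entries of genes that lie head to head can hold the same match, as those of Hist1h2aa and Hist1h2ba do, so the 14 are not all separate sites. CCAAT was present in every H1, H2A, H2B and H3 entry and in 3 of 11 H4 entries, 86.0% of members against 37.4% of all promoters. TATAAA was present in 59.6% against 13.6%, with 73.3% of H2A, 66.7% of H1, 63.6% of H4, 53.3% of H2B and 40% of H3 entries. No string contains another, and RefSeq's promoters were matched by name for 56 members, without Hist1h2bc, Hist1h3a, Hist1h3f, Hist2h2be, Hist2h4 and Hist3h2bb.

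Between ES cells and fibroblasts H3K4me3 fell at 3 of the 55 members. In limma's moderated test over all promoters with Benjamini-Hochberg adjustment, the 3 were lower in fibroblasts (background 3.2% lower) and none was higher (background 1.98%). They were Hist1h2aa, Hist1h2ba and Hist3h2ba, and the same 3 were all that had an unadjusted p under 0.05. The median difference over the 55 was 0.10, against -0.04 over all promoters, and it was -0.05 without E14. With normexp background correction, in place of the scanner's own, 7 members were called higher in fibroblasts and 4 lower, the same 3 among them. Over all 17786 promoters 3245 were called higher and 1253 lower in that setting, so the 7 are not an excess among members. The largest gains, none past the threshold, were 0.53 at Hist2h2bb (SE 0.27, limma adjusted p = 0.418), 0.42 at Hist1h1b, 0.41 at Hist1h1c and 0.40 at Hist1h4b. After the 3, the largest loss was -0.38 at Hist1h4f (limma adjusted p = 0.558).

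The testis pair had less of both marks in fibroblasts than in ES cells. Hist1h2aa and Hist1h2ba start 281 bp apart on opposite strands and share probes, so they count as 1 observation. At Hist1h2ba H3K4me3 was 0.86 in E14, 0.80 in V6.5, -0.72 in MEF1, -0.82 in MEF2 and 0.78 in iPS cells. Its H3K27me3 was 1.12, 1.95, -0.04, 0.11 and 1.32 in the same order. In both marks the ES and iPS values were higher than the fibroblast values, and the groups did not overlap. The H3K4me3 of ES and iPS cells was itself below that of most promoters, at percentiles of 45.6, 37.9 and 43.1 among all 17786, while the H3K27me3 was at 98.2, 98.5 and 96.1.

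The H3K4me3 difference in fibroblasts was -1.60 at Hist1h2ba (SE 0.21, limma adjusted p = 0.00249) and -1.55 at Hist1h2aa (limma adjusted p = 0.003). H3K27me3 fell by 1.496 (SE 0.29, limma adjusted p = 0.0417) and 1.46 (limma adjusted p = 0.0446). Of the 9 probes around Hist1h2aa, all 9 had both fibroblast lines below both ES lines in H3K4me3, and 8 did in H3K27me3. The H3K27me3 calls did not survive leaving out V6.5, MEF1 or MEF2, and neither did those of any other promoter. In iPS cells H3K4me3 was higher than in fibroblasts by 1.54 at Hist1h2ba (SE 0.25, limma adjusted p = 0.0302) and 1.497 at Hist1h2aa (limma adjusted p = 0.0348), the 2 members called in that comparison (background 0.506%). Both calls were lost without MEF1 or MEF2, with adjusted p of 0.0572 and 0.133 at Hist1h2ba. With normexp background correction the differences were 0.40 at Hist1h2ba (limma adjusted p = 0.156) and 0.29 at Hist1h2aa (limma adjusted p = 0.265), not called. In that setting 32 other members were called lower in iPS cells, where 1509 of all 17786 promoters were lower and 278 higher. The H3K27me3 differences of 1.28 and 1.22 did not pass (limma adjusted p = 0.157 and 0.169).

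Hist1h1t, the testis linker histone, lay in the same cluster but had a weaker pattern. Its H3K4me3 was 0.74 in E14, 0.43 in V6.5, 0.22 in MEF1, 0.30 in MEF2 and 0.49 in iPS cells, a fibroblast difference that did not pass (limma adjusted p = 0.644). Its H3K27me3 was 0.40, 0.64, -0.47, -0.60 and -0.10. H3K27me3 was lower in fibroblasts by -1.06 (SE 0.14, limma adjusted p = 0.0284), and 10 of 13 probes had both fibroblast lines below both ES lines. The iPS value lay between the groups.

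Hist3h2ba, an H2B gene outside the large cluster, moved the other way in H3K27me3. Its H3K27me3 was 1.21 in E14, 0.88 in V6.5, 2.24 in MEF1, 2.99 in MEF2 and 1.34 in iPS cells. Only 13 of 17786 promoters had a higher ratio in MEF1, and only 3 in MEF2. The protocol text of these fibroblast arrays and their label fields differ on which dye held the precipitated DNA, and the fields were followed. The fibroblast H3K27me3 ratios correlated with those of the ES lines at r of 0.617 to 0.646 over all probes, so they ran the same way as the ES ratios. Its H3K4me3 was 2.08, 2.08, 1.14, 1.17 and 2.26, so both fibroblast lines were below the rest and still above 1.

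H3K27me3 at Hist3h2ba was higher in fibroblasts by 1.57 (SE 0.28, limma adjusted p = 0.0371) and H3K4me3 was lower by -0.92 (SE 0.21, limma adjusted p = 0.0313). All 6 probes had both fibroblast lines above both ES lines in H3K27me3 and below them in H3K4me3, and the iPS line on the ES side of both fibroblast lines in each mark. The iPS difference from fibroblasts was 1.11 in H3K4me3 (limma adjusted p = 0.0943) and -1.27 in H3K27me3 (limma adjusted p = 0.153), neither past the threshold. The H3K27me3 call was lost when any 1 of the 4 ES and fibroblast lines was left out. Without V6.5, MEF1 or MEF2 the H3K27me3 calls of all other promoters were lost too. The H3K4me3 call was lost without V6.5, MEF1 or MEF2 (adjusted p of 0.0526, 0.176 and 0.207). With all probes that carry the gene's name, wherever they lie, the H3K4me3 difference was -0.09.

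The neighbour of Hist3h2ba had H3K4me3 with H3K27me3 near 0. Hist3h2a, the H2A gene of cluster 3, starts 5774 bp away. Its H3K4me3 was 1.96 in E14, 2.44 in V6.5, 1.95 in MEF1, 2.22 in MEF2 and 2.40 in iPS cells, with H3K27me3 between -0.10 and 0.32. Its fibroblast differences were -0.11 in H3K4me3 (limma adjusted p = 0.984) and 0.19 in H3K27me3 (limma adjusted p = 0.500). Hist4h4, the only gene of cluster 4, had H3K4me3 of 1.53, 1.57, 1.93, 1.89 and 1.39, and H3K27me3 below 0 in each line, from -0.53 to -0.10.

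H3K27me3 was lower in fibroblasts at 6 members (background 6.6%) and higher at Hist3h2ba alone (background 4.13%). Besides the testis pair and Hist1h1t, the lower ones were Hist1h1e, Hist1h3d and Hist2h2be, an H1, an H3 and an H2B gene. Hist1h1e read 0.58 in E14, 0.79 in V6.5, -0.13 in MEF1, -0.26 in MEF2 and 0.50 in iPS cells, a difference of -0.88 (SE 0.14, limma adjusted p = 0.0302). Its H3K4me3 was between 1.68 and 2.31 in the 5 lines. Both marks were thus at least 0.5 in ES and iPS cells, and H3K4me3 alone was in fibroblasts. The iPS value of H3K27me3 lay at that limit, which 23.3% of all promoters reached in iPS cells. Its H3K27me3 reached 1 in no line. The differences were -0.84 at Hist2h2be (limma adjusted p = 0.0354) and -0.82 at Hist1h3d (limma adjusted p = 0.0426). Hist1h3i differed by -0.91 and did not pass (limma adjusted p = 0.0812). The calls were lost when V6.5, MEF1 or MEF2 was left out, as were those of all other promoters, so these settings do not set the members apart.

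Most members had a small H3K27me3 difference of the same sign. Fibroblasts were lower at 49 of 55, including all 8 H3 genes, 15 of 16 H2B, 12 of 14 H2A, 10 of 11 H4 and 4 of 6 H1 genes, against 9846 of 17786 promoters. The median difference was -0.36, against -0.04 over all promoters and -0.06 over the other promoters with H3K4me3 of at least 1 in all lines. It was -0.12 with normexp background correction, -0.13 without E14 and -0.16 without MEF2, and the member medians of V6.5 and MEF1 were nearly equal (-0.62 and -0.61).

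Between iPS and ES cells no difference passed the test in either mark. No member was called for H3K4me3 (limma adjusted p, background 0% of all promoters, 0 of 55 at an unadjusted p under 0.05) or for H3K27me3 (background 0%, 1 of 55 at an unadjusted p under 0.05). With 1 iPS line, a call needs a large difference. The largest H3K4me3 differences were -0.60 at Hist2h2be, -0.51 at Hist2h2ac and -0.40 at Hist2h2ab, 3 genes of cluster 2, and 0.40 at Hist1h2bn, 0.33 at Hist1h2ak and 0.32 at Hist1h2ah in cluster 1. In H3K27me3 they were -0.62 at Hist1h1t, -0.55 at Hist1h3i, -0.42 at Hist2h2be, 0.40 at Hist1h2ah, 0.38 at Hist2h2bb and 0.33 at Hist1h2bk. The H3K4me3 result depended on the background correction. With normexp the median H3K4me3 difference over members was -0.82, against 0.02 over all promoters. In limma's test 42 of 55 members then had an unadjusted p under 0.05, against 3582 of 17786 promoters, and none was called. Between iPS cells and fibroblasts no member was called for H3K27me3 in limma's test (background 0%), although 13 had an unadjusted p under 0.05 and 50 of 55 differences were above 0 (median 0.42, against 0.05 over all promoters, and 0.15 with normexp background correction).

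RNA of the clustered histone genes was lower in fibroblasts than in ES cells at 13 of 31 members and higher at 2. The threshold was a limma adjusted p under 0.05 with at least 2-fold change, and the background was 18.3% lower and 16.2% higher among all 17133 genes. The median difference over the 31 was -0.61 on the log2 scale, against -0.13 over all genes. By type, the lower ones were 5 of 6 H4 genes, 4 of 9 H2A, 2 of 6 H1, 1 of 3 H3 and 1 of 7 H2B genes. The 2 higher ones were an H1 and an H2B gene. Values are log2 signals minus the 75th percentile of the array and are compared only within a gene. How far the arrays read messenger RNAs without a poly(A) tail was not tested, so the counts may not stand for all histone messenger RNA.

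**Figure D4:**
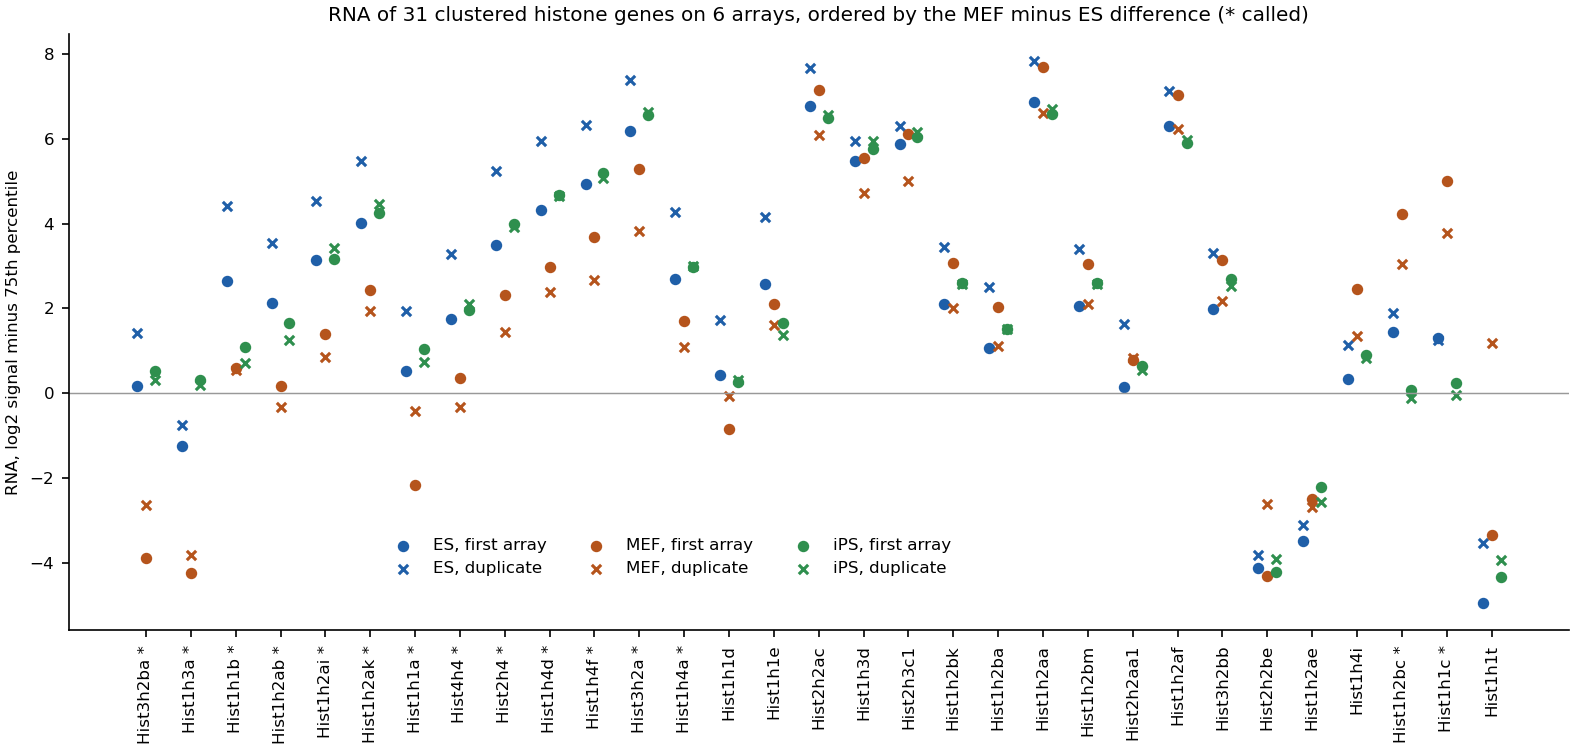
RNA of the 31 members on the 6 arrays, as log2 signal minus the array's 75th percentile, ordered by the fibroblast minus ES difference; circles are first arrays, crosses are duplicates and asterisks mark the 15 called members. Levels of different genes come from different probes and are not comparable; Hist3h2ba is at the left end, and Hist1h1c and Hist1h2bc are among the last 3 at the right.

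Hist3h2ba, the H2B gene whose H3K27me3 was higher in fibroblasts than in ES cells, had less RNA in fibroblasts. It read 0.17 and 1.42 on the ES arrays, -3.89 and -2.64 on the fibroblast arrays, and 0.52 and 0.31 on the iPS arrays. The difference between fibroblasts and ES cells was -4.06 (SE 0.61, limma adjusted p = 0.00335), and iPS cells were higher than fibroblasts by 3.68 (limma adjusted p = 0.00452). It was above background on only 1 of 2 fibroblast arrays, so the size of the fall is not fixed. In both fibroblast lines Hist3h2ba had the highest H3K27me3 of the 55 members (2.24 and 2.99), with H3K4me3 below that of ES cells. It was also the highest member in E14 (1.21) and in iPS cells (1.34), so this rank is not particular to fibroblasts.

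Hist1h3a, an H3 gene, read -1.24 and -0.76 in ES cells, -4.25 and -3.82 in fibroblasts, and 0.31 and 0.19 in iPS cells. Its fibroblast difference was -3.04 (SE 0.42, limma adjusted p = 0.00247), and it too was above background on 1 of 2 fibroblast arrays, so that its place beside Hist3h2ba is not ordered. The remaining members that fell ranged from -2.96 at Hist1h1b to -2.07, with Hist1h2ab at -2.92, Hist1h2ai at -2.72, Hist1h2ak at -2.56, Hist1h1a at -2.52 and Hist4h4 at -2.50. Hist4h4 read 1.76 and 3.28 in ES cells, 0.35 and -0.32 in fibroblasts, and 1.96 and 2.10 in iPS cells, so the fibroblast arrays lay below the others. Hist3h2a fell by 2.23 on the probe used (limma adjusted p = 0.0344), which was saturated on 1 of 5 arrays with a flag. A further probe of Hist3h2a went the other way, with 0.52 and 0.47 in ES cells and 2.06 and 0.79 in fibroblasts. Another, without a RefSeq match, was above background on all 6 arrays and saturated on none. It read 1.77 and 3.40 in ES cells and 0.84 and -0.30 in fibroblasts, the same direction as the probe used.

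The members that rose in fibroblasts were Hist1h1c and Hist1h2bc. Hist1h1c, a linker histone gene, read 1.31 and 1.27 on the ES arrays, 5.01 and 3.79 on the fibroblast arrays, and 0.24 and -0.05 on the iPS arrays. Its difference was 3.11 (SE 0.51, limma adjusted p = 0.00458). Hist1h2bc, an H2B gene, read 1.45 and 1.89, 4.23 and 3.05, and 0.07 and -0.11 in the same order, a difference of 1.97 (SE 0.51, limma adjusted p = 0.0258). Transcripts of both genes are known to be able to carry a poly(A) tail in cells that leave the cycle; the probes here do not tell the 2 ends apart. Their promoters had H3K4me3 above 1 in all 5 lines.

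The testis copies gave no RNA call, while 3 of 5 germ cell markers were lower in fibroblasts than in ES cells (1 of 5 without the ES duplicate). Hist1h2ba read 1.07 and 2.52 in ES cells, 2.03 and 1.11 in fibroblasts, and 1.506 and 1.504 in iPS cells, so the groups overlapped although its promoter had both marks of at least 0.5 in ES cells and neither in fibroblasts. Hist1h1t was above background on 1 ES, 1 fibroblast and 2 iPS arrays, and its difference of 3.16 rested on the fibroblast duplicate (1.18, against -3.36 on the other fibroblast array; limma adjusted p = 0.113). The Hist1h2aa probe was saturated on 4 of 5 arrays with a flag and is identical in 47 of 60 bases to that of Hist1h2af, which was saturated on 5, so no fold is given for either probe. A further probe of Hist1h2af, saturated on no array and above background on all 6, read 5.06 and 6.31 in ES cells, 3.08 and 2.09 in fibroblasts, and 5.25 and 5.19 in iPS cells, with the fibroblast arrays below the rest. It matches the probe of Hist1h2ak, which also fell, over all 40 aligned bases, so the 2 genes cannot be told apart there. Other probes are closer still: those of Hist1h2bk and Hist1h2bm share 58 of 60 bases, and those of Hist1h4d and Hist1h4f all 50 aligned. In total 7 of the 31 probes used share at least 50 bases with the probe of another member, so these members are not separate measurements.

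The number of RNA calls depended on the ES duplicate. That array read higher than the first ES array at 30 of 31 members, by a median of 1.33, against 10585 of 17133 genes and a median of 0.22. Without it, with only the first ES array left, fewer members were called, and the share of members called lower was near that of all genes. The differences then were -3.43 at Hist3h2ba, -2.79 at Hist1h3a and 3.09 at Hist1h1c. The median difference over members was -0.34, against -0.06 over all genes. Between the fibroblast arrays 24 of 31 members were higher on the first, by a median of 0.67, against 0.40 over all genes.

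No RNA difference between iPS and ES cells passed the test (0 of 31 members by limma, background 0.251%), and 5 had an unadjusted p under 0.05, against 2772 of 17133 genes. The largest differences were -2.64 at Hist1h1b (limma adjusted p = 0.127), -1.86 at Hist1h1e, -1.69 at Hist1h2bc, -1.38 at Hist1h2ab and 1.25 at Hist1h3a. Hist1h1b read 2.66 and 4.42 in ES cells, 0.61 and 0.56 in fibroblasts, and 1.09 and 0.72 in iPS cells, nearer to the fibroblast arrays. Against fibroblasts, iPS cells were higher at 9 members (background 18.7%) and lower at 2 (background 17.3%). Hist1h3a (4.29), Hist3h2ba (3.68), Hist1h2ai (2.18), Hist1h2ak (2.18) and Hist2h4 (2.08) led the higher ones, and Hist1h1c (-4.31) and Hist1h2bc (-3.66) were the lower ones. Both comparisons with fibroblasts share the fibroblast arrays. With either iPS array left out, fewer calls were made among the members and among all genes. The median difference over members was 0.32 with both iPS arrays, 0.14 without the first and 0.48 without the duplicate. Over all genes these medians were 0.14, 0.12 and 0.15.

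Across the 27 members with all 3 readouts, the fibroblast differences in RNA and in the marks had Spearman's rho of -0.12 with H3K4me3 and -0.33 with H3K27me3, given as a description, since members share promoters, probes and arrays. Hist1h1b illustrates it: its RNA fell by 2.96 while its H3K4me3 was 2.17 and 2.56 in the ES lines and 2.65 and 2.92 in the fibroblast lines.

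Genes that act in S phase and in histone supply were read from the same arrays, where 18.3% of all genes were lower in fibroblasts and 16.2% higher. Of 16 genes of replication licensing and S phase, 15 were lower in fibroblasts and none higher, with a median of -3.04; Mcm5, Cdt1 and Mcm3, which license origins, differed by -4.85, -4.83 and -4.52. Among 20 factors of histone gene expression, 9 were lower and none higher (median -1.12). They included Ccne1 (cyclin E1, -3.42), Pou2f1 (Oct-1, -3.01) and Zfp473, which encodes a protein of histone 3′ end processing. Zfp473 read -0.09 and -0.48 on the ES arrays and -4.89 and -2.95 on the fibroblast arrays, the first of which lay under the lowest level well above background there (-3.33), so no fold is given. Of 16 histone chaperones and deposition genes 10 were lower and none higher (median -1.76), with Nasp at -4.10, Hat1 at -3.55 and Chaf1b at -3.23. Of 12 replacement variants, most of which are made outside S phase as well, 4 were lower, among them H2afz (-3.33), H2afx (-3.32) and Cenpa (-2.96), and none higher. Of 9 housekeeping genes 1 was lower, Hprt, with a median of -0.43, against -0.61 over the 31 clustered histone genes. With only the first ES array left, these medians were -0.99 and -0.34. Without the ES duplicate the lower genes numbered 11 of 16 for licensing, 4 of 20 for expression factors, 5 of 16 for chaperones, 3 of 12 for variants and 0 of 9 for housekeeping (2 at an unadjusted p under 0.05 in limma), with 1080 of 17133 over all genes, and none of these lists had a higher gene. The part of a difference in cycling cells in the histone results was not tested.

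At the chromatin level, of 58 measured promoters of the licensing, expression factor, chaperone and housekeeping genes, 0 were called between ES cells and fibroblasts in limma's test for either mark, with 1 at an unadjusted p under 0.05 for H3K4me3 and 3 for H3K27me3. The background was 3.2% lower and 1.98% higher for H3K4me3, and 6.6% lower and 4.13% higher for H3K27me3. Among the 12 measured promoters of replacement variants, 1 was lower in H3K4me3 (H2afx, -0.94, limma adjusted p = 0.0356) and 2 in H3K27me3 (H2afy2, -1.11, and H1foo, -0.81). H2afy2, which encodes a macroH2A, had H3K27me3 of 0.82 and 0.85 in the ES lines, -0.15 and -0.40 in the fibroblast lines and 1.05 in iPS cells.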

How the data were processed

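Each promoter set was measured on 2 arrays and RNA on 6, and all 26 samples were used. Scanner intensity values were made with Agilent Feature Extraction, 9.1.3.1 for promoter and 9.5.1.1 for expression arrays, per the file headers, which also give the deposited background flags and log10 ratio. The authors' value table held the processed RNA intensity of each sample; where it and the scanner files disagreed on the label the table was followed. The build of the promoter array is not named by labels or headers, so starts were placed by matching probe sequences to RefSeq promoters (GRCm38.p6), or from region labels for Hist1h2bc, Hist1h3f, Hist1h4j, Hist1h4k, Hist2h2be and Hist2h4; the start of Hist1h2be is that of its long transcript.

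Processed Cy5 over Cy3 signals were turned to log2, centred on each array's median and averaged over probes within 1000 bp of the start (at least 3 probes). The Cy5 channel is the precipitated DNA by the label fields, although the labelling text of the fibroblast H3K27me3 arrays names Cy3; their ratios correlated with those of the ES lines at r of 0.617 to 0.646. RNA was log2 minus the 75th percentile, with 1 probe per gene, kept if well above background on both arrays of a group. Both were fitted with limma 3.58.1 in R 4.3.3 over all features, with residual degrees of freedom of 2 and 3 (the code was tested on simulated data). The members and lists were chosen with earlier results of these data known. Named are the testis copies and clusters 3 and 4, the members highest, lowest or most different in each readout, those called (the 5 largest each way where over 10), and at most 3 per list. Alternatives covered the window, normalization, filter, start placement, file labels and each left-out sample.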

Additional observations from a re-analysis of the deposited data

How the results depend on the processing

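Called members numbered 3 for H3K4me3 and 7 for H3K27me3 between fibroblasts and ES cells, and 2 for H3K4me3 between iPS cells and fibroblasts. With normexp background correction the H3K4me3 counts became 11 (7 higher, 4 lower) and 32 (all lower). Over all 17786 promoters the same 2 comparisons then gave 3245 higher and 1253 lower, and 278 higher and 1509 lower. The median over members of iPS minus ES was then -0.82, against 0.03. With all probes of a gene's name the H3K4me3 counts were 1 and 1, and 21 for H3K27me3 (1 higher, 20 lower). Over all 16919 promoters H3K27me3 was then higher at 1473 and lower at 2993. With probes within 500 bp, where 32 members were measured, the member counts were 0 for iPS cells against fibroblasts and 1 for H3K27me3. Over all 17268 promoters these comparisons then gave 18 higher and 18 lower, and 395 higher and 451 lower. With the median of probes the member counts were 0 and 4. Over all 17786 promoters the calls were then 0, and 406 higher and 535 lower. In the main setting they were 90 higher and 67 lower, and 735 higher and 1173 lower. Overlapping promoters counted once left 1 for iPS cells against fibroblasts. At a ratio of 1.5 no member was marked by H3K27me3 in E14 or iPS cells (0 and 0), and at 0.5 there were 5 in V6.5. Leaving out 1 line gave 2 to 3, 0 to 3 and 0 to 4 calls, in the order H3K4me3, iPS cells against fibroblasts, and H3K27me3, and 0 to 0 elsewhere; the lone line of a group is then assumed to vary like the rest.

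For RNA, 15, 0 and 11 members were called in fibroblasts against ES cells, iPS against ES cells and iPS cells against fibroblasts. Leaving out an array gave 3 to 17, 0 to 4 and 4 to 15. Without the filter on dim probes, where more genes are tested, they were 6, 0 and 4, and iPS against ES cells gave 4 with only those arrays. With scanner files read as filed they were 12 (11 higher, 1 lower), 4 and 0. The fibroblast differences then were 2.52 at Hist1h1a, 2.96 at Hist1h1b, -3.11 at Hist1h1c, 2.92 at Hist1h2ab, 2.72 at Hist1h2ai, 2.56 at Hist1h2ak, -1.97 at Hist1h2bc, 3.04 at Hist1h3a, 2.07 at Hist1h4a, 2.46 at Hist1h4d, 2.45 at Hist1h4f, 2.48 at Hist2h4, 2.23 at Hist3h2a, 4.06 at Hist3h2ba and 2.50 at Hist4h4. Those of iPS cells were -0.67 at Hist1h2ai, -0.50 at Hist1h2ak, -0.48 at Hist1h4d, -0.43 at Hist1h4f, -0.36 at Hist2h4, -0.22 at Hist3h2a, -0.27 at Hist3h2ba and -0.56 at Hist4h4. The array numbers do not pair the samples (correlations of the array differences of -0.01, -0.13 and 0.12); with the number as a block the counts were 16, 0 and 13. Except where a value shows otherwise, the cause was not tested. Of the values for single members under alternatives, 306 kept their side of the threshold, 124 fell below it and 23 reversed. Of the medians 95 moved by less than the spread and 10 by more.

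With 5 lines for chromatin and 6 arrays for RNA, the number of arrays limits the precision. For all members, RNA is limited because the reading of messenger RNAs without a poly(A) tail was not tested. Dim probes limit what RNA can show for Hist3h2ba and Hist1h3a. Saturation limits Hist1h2aa and 1 of the probes each of Hist1h2af and Hist3h2a. It also limits Hist2h2ac, whose only probe was saturated on 3 of 5 arrays with a flag.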
